A study of Mus musculus with 15 samples.

Results

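Endothelial cells were sorted as CD45- CD31+ cells from mouse hearts 4 weeks after transverse aortic constriction (TAC), a banding of the aorta that loads the heart with pressure, or after sham surgery, and their RNA was sequenced. The genotype-dependent part of the TAC response is the difference of 2 effects, KO TAC minus KO sham, less WT TAC minus WT sham. All 15 libraries of the series enter it, 4 of KO TAC, 3 of KO sham, 5 of WT TAC and 3 of WT sham. It was tested in 12471 of the 23337 genes of the count table, those with enough counts to test. KO mice were Cad5CreERT2+/+ STINGfl/fl, and WT mice were Cad5CreERT2-/- STINGfl/fl, so mice of both genotypes carry the floxed STING alleles and the KO mice alone carry the recombinase. Cad5CreERT2 is a tamoxifen-dependent Cre driven by the promoter of VE-cadherin, which is active in endothelial cells of every vascular bed. With no Cre-positive mice lacking floxed alleles among these groups, an effect of Cre and an effect of losing STING cannot be told apart. Each library carries its own mouse number, and no pooling of mice is given in the sources used here.

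STING is an adaptor protein of the endoplasmic reticulum. The sensor cGAS makes cyclic GMP-AMP when it meets DNA in the cytosol, and STING bound to this messenger switches on IRF3 and NF-kB, which drive interferon and inflammatory genes. Endothelial cells of the heart are mostly capillary cells that pass fatty acids, water and ions to muscle, hold a tight barrier, and remodel their matrix and sprout when the loaded heart grows.

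Libraries held between 1362346 counts (WT sham 133) and 15670319 counts (WT TAC 134). Tmem173, which encodes STING, averaged 26.8 ± 4.89 CPM (counts scaled to library size) in KO TAC libraries, 23.9 ± 7.14 in KO sham, 74.7 ± 4.55 in WT TAC and 58.7 ± 6.16 in WT sham (SD; n = 4, 3, 5 and 3), so it was lower in KO without being absent, and no KO library overlapped a WT library; its difference of the TAC effects was -0.20 ± 0.22 (adjusted p = 0.723). All 28 endothelial identity genes were detected in every library. Ptprc, which encodes CD45 and was sorted against, had 0.0933 to 2.26 CPM over all libraries. KO sham 348 and KO sham 350 stood apart: 211 and 311 genes had no count there where at least 10 were predicted from the other libraries, against 3 to 20 genes in each of the other 13 libraries. Since these are 2 of the 3 KO sham libraries, the count of calls in the difference and many of the genes described in detail are also given without both. KO sham then has 1 library that is assumed to vary like the other groups.

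The difference of the TAC effects passed an adjusted p of 0.05 (edgeR's quasi-likelihood test, Benjamini-Hochberg adjustment over all genes tested) in 86 genes, 0.69% of those tested. It was positive in 25 genes (0.2%) and negative in 61 (0.489%), and 1819 genes (14.6%) had an unadjusted p under 0.05. The negative genes included 3 of 28 endothelial identity genes tested, 3 of 28 genes of junctions, caveolae and transcytosis, and 5 of 24 capillary genes, and the positive genes included 3 of 29 genes of p53 and senescence. Kdr counts in both the identity and the capillary list. The lists were chosen with earlier results of these data known, so counts by list, here and below, are a description and no separate support. In 66 of the 86 genes the KO effect alone passed the test, in 12 the WT effect alone, in 4 both and in 4 neither. Calls of the KO effect also outnumbered those of the WT effect over all genes tested in edgeR, where 1384 genes passed in either. The order depended on the tool. DESeq2 called 1572 genes in KO and 507 in WT, while limma with quality weights reversed it, with 295 in KO and 1146 in WT. The KO TAC effect itself was called in 1196 genes (9.59%), 580 higher (4.65%) and 616 lower (4.94%), and the WT TAC effect in 323 genes (2.59%), 200 higher (1.6%) and 123 lower (0.986%). The median standard error of an effect was 0.17 in KO and 0.167 in WT on the log2 scale, and 0.239 for their difference. These errors rest on 1 dispersion per gene shared by the 4 groups. Pairs of KO sham libraries had Spearman correlations of 0.953 to 0.976, against 0.983 to 0.994 for pairs within the other groups.

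Among the 61 genes with a negative difference, the median effect was -0.61 in KO and 0.17 in WT, and the median difference -0.76 (log2). Over all genes tested the median difference was 0.004. The 25 genes with a positive difference had a median effect of 0.59 in KO and -0.16 in WT, and a median difference of 0.80. The 2 effects had opposite signs in 22 of the 25 and in 43 of the 61, which the test also favours. Libraries of KO TAC lay above all 11 others in 19 of the 25 and below all 11 others in 44 of the 61, where 4.09% and 3.54% of all genes tested lay so, an arrangement that the test itself favours. KO against WT after TAC, which shares libraries with the difference, was called in 84 of the 86 genes (29.8% of all genes tested), and KO against WT after sham in 19 (9.21%). In 67 of the 86 the genotypes were thus called apart after TAC and not after sham, a pattern that the test also favours. Its share over all genes was not counted, and a missing call after sham does not show equal levels. Across the 12471 genes the 2 effects, which share no library, had a Pearson correlation of 0.288 and a Spearman correlation of 0.225, given as a description since genes are not independent.

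**Figure D1:**
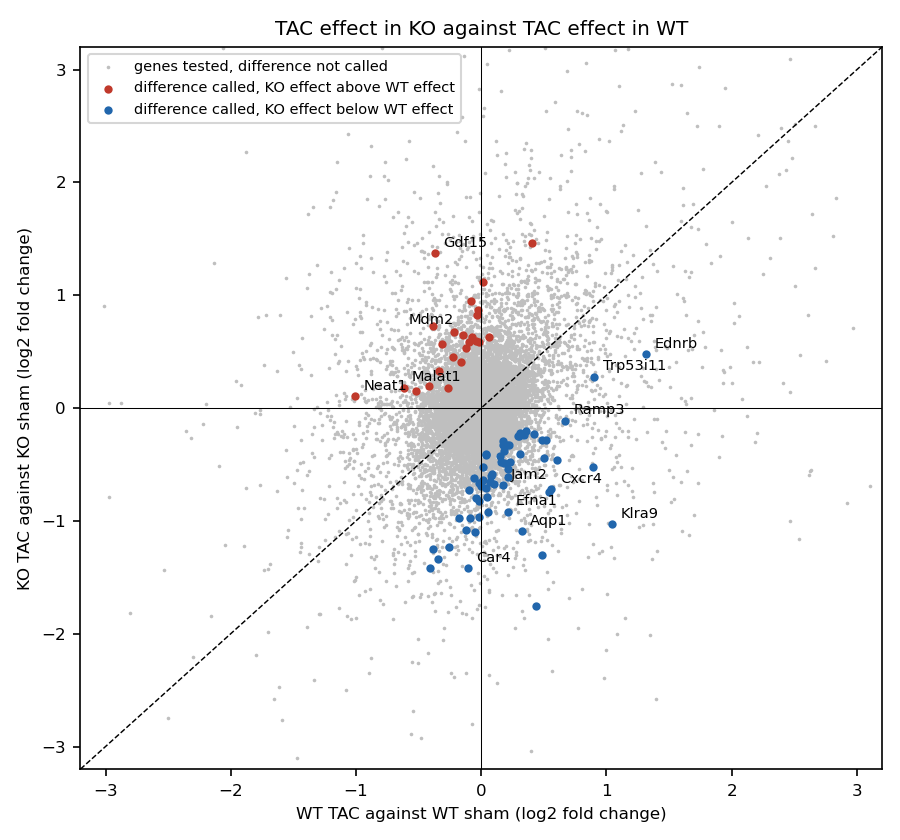
TAC effect in KO (vertical axis, log2 fold change of KO TAC against KO sham) against the TAC effect in WT (horizontal axis, log2 fold change of WT TAC against WT sham) for each gene tested, with equal effects on the dashed line; 50 genes beyond 3.2 on either axis are not drawn. The 25 genes called above the line, of which Rhou is beyond the axis and not drawn, lie mostly over a WT effect that did not pass the test. The 61 called below the line lie mostly under a WT effect that did not pass, while Ednrb and Trp53i11 lie to the right, with a smaller rise in KO.

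Several genes with a negative difference code for endothelial receptors and signals. Efna1 (chr3:89271730-89280951, minus strand, build mm10 as are all gene positions below) encodes ephrin-A1, a membrane ligand of Eph receptors. It had 84.3, 66.5, 67.8 and 83.7 CPM in KO TAC libraries against 161, 121 and 147 CPM in KO sham libraries. It had 225, 194, 222, 239 and 185 CPM in WT TAC libraries against 173, 182 and 202 CPM in WT sham libraries. All 4 KO TAC libraries were thus below every other library, and the WT groups overlapped. The KO effect was -0.92 and the WT effect 0.21, a difference of -1.13 ± 0.16 (log2 ± SE, adjusted p = 0.00385). Without both KO sham 348 and KO sham 350 the difference was -0.88 (adjusted p = 0.0756).

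Tek, Kdr and Tie1, receptor genes of the angiopoietin and VEGF systems, moved the same way. Tek (chr4:94739300-94874939) encodes Tie2, the receptor of the angiopoietins, and had 373, 384, 376 and 403 CPM in KO TAC libraries against 551, 564 and 659 CPM in KO sham libraries. In WT TAC it had 758, 736, 798, 736 and 784 CPM, against 793, 812 and 777 CPM in WT sham. Tek thus fell in KO below every other library, with KO sham already below WT sham, and the WT groups overlapped. The difference was -0.56 ± 0.10 (adjusted p = 0.0138), with a KO effect of -0.62 and a WT effect of -0.06, and -0.48 without both doubtful KO sham libraries (adjusted p = 0.167). Kdr (chr5:75933270-75978428), the main VEGF receptor of endothelium, had 3049, 2914, 3067 and 3008 CPM in KO TAC libraries, and between 3709 and 4410 CPM in the other 11 libraries. The genotypes were at one level after sham, with 4015 ± 95.7 CPM in KO and 4046 ± 298 CPM in WT (SD, n = 3 each), so that KO TAC alone stood lower. Its difference was -0.45 ± 0.10 (adjusted p = 0.034). Tie1, the orphan partner of Tie2, averaged 1113 ± 48.1 CPM in KO TAC and 1397 ± 181 CPM in KO sham, and 1733 ± 80.9 CPM in WT TAC and 1531 ± 34.5 CPM in WT sham (difference -0.51 ± 0.11, adjusted p = 0.034). Without both KO sham 348 and KO sham 350 the differences were -0.41 for Kdr and -0.35 for Tie1. Tek was called in each of the 15 refits that left out 1 library. Kdr was called only without WT sham 132, WT TAC 135, KO sham 349 or KO TAC 354 and Tie1 only without WT TAC 135, KO sham 348, KO sham 349 or KO TAC 354, with adjusted p-values of up to 0.105 for each in the other refits.

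Cxcr4, the receptor of the chemokine Cxcl12 and a gene of arterial and tip cells, had 62.1, 70.9, 61.2 and 44.2 CPM in KO TAC libraries against 112, 95 and 87.6 CPM in KO sham libraries. It had 212, 171, 183, 228 and 119 CPM in WT TAC libraries against 143, 119 and 105 CPM in WT sham libraries. Cxcr4 fell in KO (effect -0.72, adjusted p = 0.011) and its WT effect of 0.56 did not pass (adjusted p = 0.078). The difference was -1.28 ± 0.24 (adjusted p = 0.0152) and -1.21 without both KO sham libraries (adjusted p = 0.153); without WT sham 133 its adjusted p was 0.052. Its ligand Cxcl12 fell in both genotypes by similar amounts (effect -0.60 in KO and -0.49 in WT, difference -0.10 ± 0.12, adjusted p = 0.747). Sema6a, a semaphorin that binds plexins, had a difference of -0.67 ± 0.11 (adjusted p = 0.0115), and was called in all 15 refits. Ets2, an ETS family transcription factor, and Pcdh12, an endothelial protocadherin, had differences of -0.70 and -0.58 (adjusted p = 0.0138 and 0.0174), both lost without WT sham 133 (adjusted p = 0.052 and 0.05565). Pcdh12 rose in WT (0.34), and its KO effect of -0.24 did not pass. Of 36 genes of angiogenesis and tip cells tested, 4 were called lower (Kdr, Cxcr4, Trp53i11 and Ramp3) and none higher, and the median difference was -0.06, between -0.11 without WT sham 132 and -0.02 without WT sham 133.

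Of the 28 endothelial identity genes tested, 3 were called with a negative difference (Tek, Tie1 and Kdr) and none with a positive one, against 0.489% and 0.2% of all genes, and 26 of the 28 lay below 0. The median difference of the list was -0.22, with a median effect of -0.11 in KO and 0.12 in WT. Their summed level was 25520 to 27110 CPM in KO TAC against 28630 to 32020 CPM in KO sham. The sum was 29090 to 32060 CPM in WT TAC against 27840 to 30120 CPM in WT sham. Pecam1, which encodes CD31, averaged 2189 ± 56.5 CPM in KO TAC and 2182 ± 80.0 CPM in KO sham, and 1915 ± 56.9 CPM in WT TAC and 1758 ± 143 CPM in WT sham (difference -0.12 ± 0.10, adjusted p = 0.616). Cdh5, which encodes VE-cadherin, averaged 4107 ± 168 CPM in KO TAC and 4241 ± 211 CPM in KO sham, and 3948 ± 161 CPM in WT TAC and 3433 ± 117 CPM in WT sham (difference -0.25 ± 0.09, adjusted p = 0.207). Neither difference passed. In sorted bulk RNA, fewer cells of a type and less RNA per cell cannot be told apart.

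Genes of cell junctions and transcytosis were also among the negative genes. Jam2 (chr16:84774123-84826375), which encodes junctional adhesion molecule B of tight junctions, had 569.7, 523, 465 and 536 CPM in KO TAC libraries against 809, 762 and 948 CPM in KO sham libraries. In WT TAC it had 1170, 1110, 1261, 1228 and 1270 CPM, against 1092, 1144 and 976 CPM in WT sham. KO TAC libraries were the lowest of all, and the WT groups overlapped. The difference was -0.85 ± 0.12 (adjusted p = 0.00385), called in all 15 refits, and -0.70 without both KO sham libraries (adjusted p = 0.0756). Mllt4, which encodes the nectin-binding scaffold afadin, had a difference of -0.58 ± 0.11 (adjusted p = 0.0138, called in all 15 refits). Tjp1, which encodes the tight junction scaffold ZO-1, had a difference of -0.45 ± 0.10 (adjusted p = 0.0415), kept only without WT sham 131, WT TAC 135 or KO sham 349 (up to 0.121 in the others). Fcgrt, the neonatal Fc receptor that carries immunoglobulin G and albumin across and back into endothelial cells, had 72.7, 65.4, 61.1 and 75.3 CPM in KO TAC libraries against 112, 99.1 and 102 CPM in KO sham libraries. It had 153 to 180.1 CPM in WT TAC against 136 to 148 CPM in WT sham. Fcgrt fell in KO (effect -0.61, adjusted p = 0.00018) with no overlap of the KO groups, and its difference was -0.82 ± 0.12 (adjusted p = 0.00481, called in all 15 refits). Without both KO sham libraries the Fcgrt difference was -0.74. Of the 28 genes of junctions, caveolae and transcytosis tested, these 3 (Jam2, Tjp1, Fcgrt) were called lower and none higher, 23 lay below 0, and the median difference was -0.27.

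The list with the most calls was that of capillary genes. In it 5 of 24 genes tested (Car4, Aqp1, Cd36, Dhrs3 and Kdr) had a called negative difference and none a positive one; 21 lay below 0, and the median difference was -0.42, from a median effect of -0.38 in KO and 0.05 in WT. Without both KO sham libraries this median was -0.25. Car4 (chr11:84957754-84966054), a carbonic anhydrase anchored on the capillary surface, had 43.1, 26.6, 27.2 and 41.6 CPM in KO TAC libraries against 94.5, 81.5 and 101 CPM in KO sham libraries. It had 167, 143, 199.8, 137 and 170.2 CPM in WT TAC libraries against 159.5, 161 and 219 CPM in WT sham libraries. The 4 KO TAC libraries were below the 3 KO sham libraries, which were below all WT libraries, and the WT groups overlapped. Car4 fell by 1.42 in KO on the log2 scale and had a WT effect of -0.11, a difference of -1.31 ± 0.22 (adjusted p = 0.0117, called in all 15 refits), and -1.13 without both KO sham libraries (adjusted p = 0.158). Aqp1 (chr6:55336299-55348555), the water channel of capillaries, had 1514, 959.7, 786 and 1795 CPM in KO TAC libraries against 2179, 2460 and 3444 CPM in KO sham libraries. In WT TAC libraries Aqp1 had 3859, 3824, 5121, 4336 and 4401 CPM, against 2813, 3530 and 4006 CPM in WT sham libraries. The KO groups did not overlap and the WT groups did, and the KO TAC libraries differed among themselves by more than in most genes named here. Its difference was -1.41 ± 0.28 (adjusted p = 0.0212), and was lost without WT sham 131, WT sham 132, WT TAC 136, WT TAC 137 or KO TAC 352 (adjusted p up to 0.106). Without both KO sham libraries the Aqp1 difference was -1.27 (adjusted p = 0.167).

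Genes of fatty acid handling were called in small number. Cd36, the fatty acid translocase through which capillaries take up lipid, had 3359, 2960, 2731 and 3807 CPM in KO TAC libraries against 4746, 5264 and 5232 CPM in KO sham libraries. In WT TAC it had 6716, 5456, 7233, 6701 and 6598 CPM, against 6422, 6740 and 6708 CPM in WT sham. The KO groups were apart and the WT groups overlapped (effect -0.66 in KO and -0.02 in WT). The difference was -0.64 ± 0.14 (adjusted p = 0.0321), and -0.68 without both KO sham libraries (adjusted p = 0.167). Lipe, the hormone-sensitive lipase, and Dhrs3, a retinaldehyde reductase, had differences of -0.72 ± 0.15 and -0.95 ± 0.21 (adjusted p = 0.0321 and 0.0415). The calls of Cd36 and Dhrs3 were kept only without WT TAC 135, KO sham 348, KO sham 349 or KO TAC 354, and that of Lipe without WT TAC 135, WT TAC 137, KO sham 349 or KO TAC 354 (adjusted p up to 0.169 in the other refits). Of the 35 genes of fatty acid uptake and oxidation tested, 2 were called lower (Cd36, which is also in the capillary list, and Lipe), none higher, 25 lay below 0 and 10 above, and the median difference was -0.22. In limma Lipe was not called (adjusted p = 0.0749), and without both KO sham libraries its difference was -0.44. Fasn, the fatty acid synthase and not in that list, went the other way, with a KO effect of 1.12 and a WT effect of 0.02 (difference 1.10 ± 0.25, adjusted p = 0.0415, kept only without WT sham 132, WT TAC 135, KO sham 349 or KO TAC 354, up to 0.138 otherwise).

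**Figure D2:**
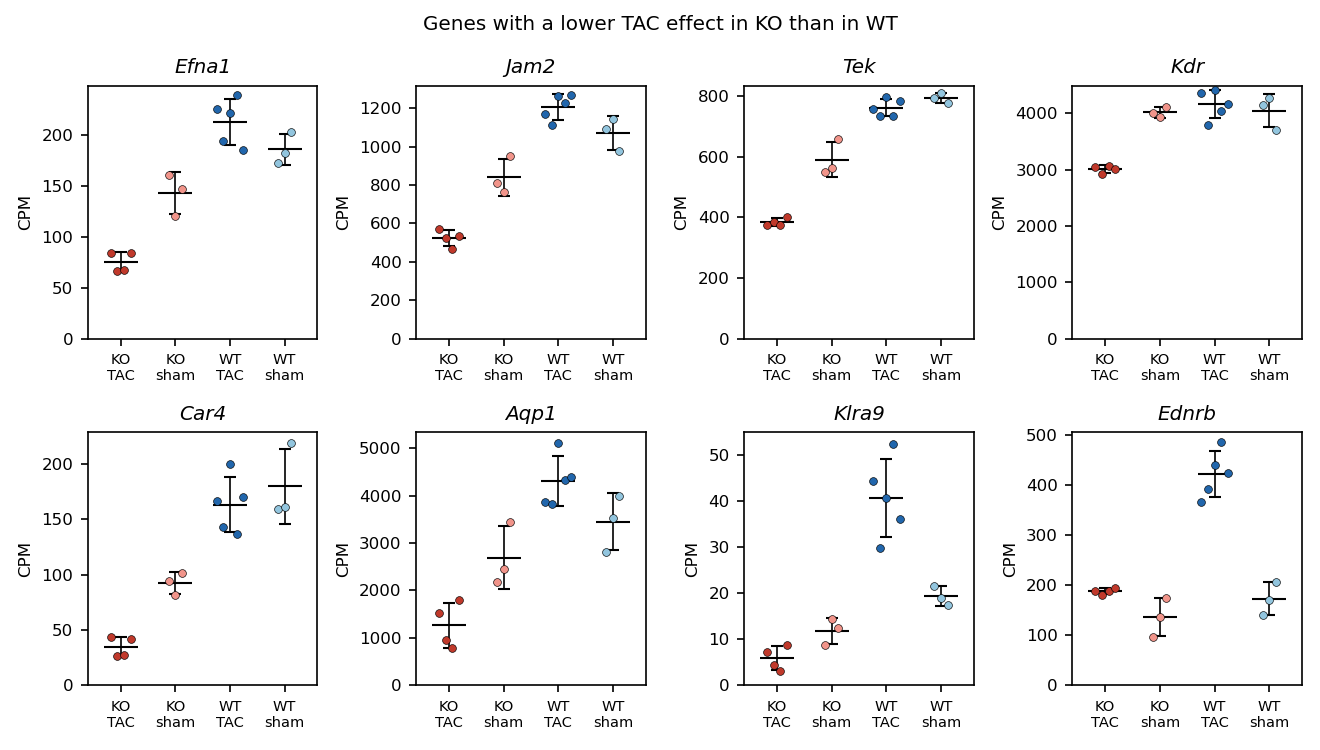
CPM (vertical axes from 0) of 8 genes with a negative difference, 1 point per library in KO TAC, KO sham, WT TAC and WT sham, with the mean and SD of each group as bars. In Efna1, Jam2, Tek, Kdr, Car4 and Aqp1 the 4 KO TAC libraries are the lowest of the 15; in Ednrb the 5 WT TAC libraries are the highest; in Klra9 both hold, except that 1 KO sham library lies at the level of the highest KO TAC library.

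A smaller set of genes rose in WT TAC and did so less, or not, in KO TAC. Ednrb (chr14:103814625-103844173), the endothelin B receptor through which endothelial cells take up endothelin and release nitric oxide, had 189, 179.7, 188 and 194 CPM in KO TAC libraries against 97.1, 136 and 173 CPM in KO sham libraries. In WT TAC it had 367, 393, 439.9, 486 and 425 CPM, against 140.4, 171 and 207 CPM in WT sham. TAC libraries lay above sham libraries in both genotypes, and the WT TAC libraries lay far above the KO TAC libraries. Ednrb rose by 0.48 in KO and by 1.32 in WT (difference -0.84 ± 0.20, adjusted p = 0.0488), a call kept only without WT TAC 135, KO sham 348 or KO sham 349 (up to 0.193 otherwise), and the difference was -0.85 without both KO sham libraries (adjusted p = 0.0922). Trp53i11, named for its induction by p53, also rose in both (0.28 in KO and 0.90 in WT, difference -0.62 ± 0.12, adjusted p = 0.0174, lost without WT sham 131, WT sham 133 or KO TAC 352, up to 0.0961). Ramp3, a partner of the adrenomedullin receptor, had 39.6, 50.9, 41 and 42.5 CPM in KO TAC libraries against 50.4, 41 and 50.2 CPM in KO sham libraries. It had 71.5, 61.9, 73.5, 72 and 73.3 CPM in WT TAC libraries against 38.8, 49.5 and 44.4 CPM in WT sham libraries. The KO groups overlapped while the WT groups did not. Its difference was -0.78 ± 0.16 (adjusted p = 0.0283), kept in 6 of 15 refits, those without WT sham 132, WT TAC 135, KO sham 349, KO sham 350, KO TAC 352 or KO TAC 354 (up to 0.144 otherwise). Without both KO sham libraries the Ramp3 difference was -0.57. Ramp2, its close relative, rose in WT (0.36) with a KO effect of -0.20 (difference -0.56 ± 0.13, adjusted p = 0.0448, kept only without WT TAC 135, KO sham 349 or KO TAC 354, up to 0.150 otherwise). Of 32 vasoactive and flow-responsive genes tested, these 3 (Ednrb, Ramp2, Ramp3) were called lower, none higher, and the median difference was -0.25 (-0.13 without KO sham 350). In limma none of this list was called, with adjusted p-values of 0.0553 for Ednrb, 0.098 for Ramp2 and 0.0749 for Ramp3.

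In 2 genes the TAC effect passed the test in opposite directions. Fxyd6, a regulator of the sodium pump, had 58.5, 59.9, 54.6 and 61.6 CPM in KO TAC libraries against 96.6, 74.8 and 67 CPM in KO sham libraries. It had 149, 119, 129, 122 and 139 CPM in WT TAC libraries against 87.9, 93 and 102 CPM in WT sham libraries. It fell by 0.45 in KO and rose by 0.50 in WT with no overlap in either genotype (difference -0.94 ± 0.15, adjusted p = 0.0101; -0.84 without both KO sham libraries, adjusted p = 0.0526). Klra9 (chr6:130178682-130193112) belongs to the Ly49 family of lectin-like receptors, known from natural killer cells. It had 7.18, 4.38, 3.07 and 8.7 CPM in KO TAC libraries against 8.6, 14.3 and 12.3 CPM in KO sham libraries. It had 44.3, 29.8, 40.7, 52.4 and 36 CPM in WT TAC libraries against 21.6, 18.9 and 17.3 CPM in WT sham libraries. The KO groups met at 8.6 and 8.7 CPM, and the WT groups were apart. It fell by 1.03 in KO and rose by 1.05 in WT. The difference of -2.07 ± 0.36 (adjusted p = 0.0117) was called in all 15 refits and without both KO sham libraries (-2.34, adjusted p = 0.0247). Ly49 genes are near-identical copies and reads that map to several places were not counted, so which member these reads come from is uncertain. Prg4, which encodes lubricin, was the other of the 86 genes called without both KO sham libraries (difference -1.29 ± 0.25, adjusted p = 0.0176 with all libraries; -1.55, adjusted p = 0.0247, without both); with all libraries its call was lost without WT sham 131, WT sham 133 or WT TAC 136 (up to 0.061).

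Several enzymes of oxidation and detoxification fell in KO TAC while their WT effect was close to 0. Fmo1, a flavin-containing monooxygenase, had 232, 196, 206 and 189 CPM in KO TAC libraries against 324, 296 and 343 CPM in KO sham libraries. It had 337 to 366 CPM in WT TAC against 339 to 355 CPM in WT sham. Its difference was -0.66 ± 0.11 (adjusted p = 0.0113, called in all 15 refits), and -0.53 without both KO sham libraries. Xdh, xanthine dehydrogenase, averaged 383 ± 76 CPM in KO TAC and 822 ± 209 CPM in KO sham, against 931 ± 83 CPM in WT TAC and 963 ± 56.1 CPM in WT sham (difference -1.06 ± 0.19, adjusted p = 0.0138; 0.0523 without WT sham 131). Without both KO sham libraries the Xdh difference was -0.88. Ahr, the receptor that drives detoxification genes, averaged 52.7 ± 2.68 CPM in KO TAC and 94 ± 15.4 CPM in KO sham, and 153 ± 11.9 CPM in WT TAC and 152 ± 24.7 CPM in WT sham (difference -0.81 ± 0.15, adjusted p = 0.0174; 0.0524 without WT sham 133; -0.52, adjusted p = 0.3196, without both KO sham libraries). Fmo2, Cyp2d22 and Gstm1, a monooxygenase, a cytochrome P450 and a glutathione transferase, had differences of -0.98, -0.89 and -0.96 (adjusted p = 0.0467, 0.0304 and 0.0343), each called in 4 of the 15 refits (up to 0.144 otherwise). All 3 calls were kept without WT TAC 135 or KO sham 349, that of Fmo2 also without KO sham 348 or KO TAC 351, that of Cyp2d22 without KO sham 348 or KO TAC 354, and that of Gstm1 without KO TAC 351 or KO TAC 354. Without both KO sham libraries the Gstm1 difference was -0.44 (adjusted p = 0.5245). Gstm1 has close relatives, so its count is uncertain. Of these 6 genes, all but Fmo1 were named after their values were seen, and they form no list. Ssh2, a phosphatase that activates the actin-severing protein cofilin, had 299, 299.5, 302 and 312 CPM in KO TAC libraries against 476, 438 and 404 CPM in KO sham libraries. It had 475 to 576 CPM in WT TAC against 422 to 492 CPM in WT sham (difference -0.75 ± 0.11, adjusted p = 0.00481). Cables2, a partner of cyclin-dependent kinases, had a difference of -0.69 ± 0.12 (adjusted p = 0.0117). Both were called in all 15 refits.

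Of the 25 positive genes, 3 belong to the list of p53 targets and senescence and 22 do not. Trp53i11, named for its induction by p53 and described above, is outside that list and had a called negative difference (-0.62). Of the 29 genes of that list tested, 3 had a called positive difference (Mdm2, Gdf15 and Phlda3) and none a negative one, 20 lay above 0, and the median difference was 0.395, from a median effect of 0.32 in KO and -0.06 in WT; without both KO sham libraries the median was 0.22. DESeq2 called 6 genes of the list higher and limma 1, with adjusted p-values in limma of 0.0252 for Mdm2, 0.233 for Gdf15 and 0.0518 for Phlda3. Mdm2 (chr10:117688905-117710716, minus strand), the ubiquitin ligase that p53 induces and that degrades p53, had 151, 134, 151 and 164 CPM in KO TAC libraries against 85.9, 112 and 87.2 CPM in KO sham libraries. In WT TAC it had 64, 67.6, 63.4, 67.2 and 65.6 CPM, against 67.2, 70.2 and 86.5 CPM in WT sham. The 4 KO TAC libraries were the highest of the 15. Mdm2 rose by 0.65 in KO, its WT effect was -0.15, and the difference was 0.80 ± 0.14 (adjusted p = 0.0138), called in all 15 refits; without both KO sham libraries it was 0.57 (adjusted p = 0.1925). Gdf15, a stress cytokine of the TGF-beta family, had 82.7, 51.6, 62.5 and 86.4 CPM in KO TAC libraries against 17.6, 33.5 and 31.1 CPM in KO sham libraries. It had 1.34 to 2.33 CPM in WT TAC against 2 to 3.01 CPM in WT sham. The genotypes were far apart after sham already (KO sham against WT sham 3.58 on the log2 scale, adjusted p = 1.4e-07), and TAC added a rise of 1.37 in KO. Phlda3, a p53 target that restrains Akt, had 109, 109.9, 109.6 and 103 CPM in KO TAC libraries against 62.8, 69.2 and 77.5 CPM in KO sham libraries. It had 20 to 21.1 CPM in WT TAC against 18.7 to 20.5 CPM in WT sham. It too was higher in KO after sham (1.83, adjusted p = 4.5e-10) and rose by 0.63 in KO.

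The differences were 1.75 ± 0.40 for Gdf15 (adjusted p = 0.0437) and 0.57 ± 0.13 for Phlda3 (adjusted p = 0.0488). Both calls were kept in 3 of 15 refits, without KO sham 349, KO sham 350 or KO TAC 352 for Gdf15 and without WT TAC 135, KO sham 349 or KO sham 350 for Phlda3, with adjusted p-values of up to 0.193 and 0.1495 in the others; without both KO sham libraries the differences were 1.46 and 0.59 (adjusted p = 0.177 and 0.158). Cdkn1a, which encodes the cell cycle inhibitor p21, averaged 724 ± 34.2 CPM in KO TAC and 492 ± 26 CPM in KO sham, and 249.5 ± 104 CPM in WT TAC and 265 ± 69.3 CPM in WT sham, and its difference of 0.62 ± 0.31 did not pass (adjusted p = 0.359). Rnf169, a ubiquitin-binding protein at double-strand breaks, and Ercc5, a nuclease of nucleotide excision repair, had differences of 0.65 ± 0.15 and 0.70 ± 0.16 (adjusted p = 0.041 and 0.0467), called in 5 and 3 of the 15 refits (up to 0.144 otherwise). Rnf169 and Ercc5 were named after their values were seen, and no list of genes for the repair of DNA was examined. Both calls were kept without WT TAC 135, KO sham 349 or KO sham 350, and that of Rnf169 also without KO sham 348 or KO TAC 354.

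The promoter windows of Mdm2, the positive gene with the smallest p, and of Phlda3, another p53 target among the called genes, are shown, from RefSeq (GRCm38.p6, the same assembly as mm10), 250 bases before to 50 after the gene start, with matches to the p53 half-site consensus, searched on the window's strand since this consensus reads alike on both strands, in capitals. The Mdm2 window is chr10:117710709-117711008 on the minus strand and the Phlda3 window chr1:135765835-135766134 on the plus strand.
Mdm2: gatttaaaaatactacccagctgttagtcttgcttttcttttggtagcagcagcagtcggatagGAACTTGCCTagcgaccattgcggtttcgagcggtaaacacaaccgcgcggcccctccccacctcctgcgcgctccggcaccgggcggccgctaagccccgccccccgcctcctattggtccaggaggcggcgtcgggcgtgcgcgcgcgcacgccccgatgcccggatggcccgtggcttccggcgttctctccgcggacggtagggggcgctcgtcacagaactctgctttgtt
Phlda3: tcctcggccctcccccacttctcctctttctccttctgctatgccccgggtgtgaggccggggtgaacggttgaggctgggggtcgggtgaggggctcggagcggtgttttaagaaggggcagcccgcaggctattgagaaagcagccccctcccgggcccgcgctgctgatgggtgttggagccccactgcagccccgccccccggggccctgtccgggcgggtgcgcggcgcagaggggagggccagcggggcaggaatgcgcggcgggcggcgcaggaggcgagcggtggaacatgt
The Mdm2 window held 1 match, which starts at position -186 counted from the RefSeq gene start at chr10:117710758 (the count table ends Mdm2 at 117710716). The Phlda3 window held no whole match. Its last bases fit the start of the consensus but are cut by the window's edge, and matches across an edge were not searched. Of all 32851 promoter windows, 8.36% held at least 1 match. Among the genes called in the difference, 2 of 21 with a positive difference and a window held one (Mdm2 and Tacc2), and 5 of 44 with a negative difference (Art3, Ednrb, Fam171a1, Fmo2 and Tjp1). A match of letters is a description and not a binding site, and the p53 elements known for Mdm2 lie in its first intron, outside this window.

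**Figure D3:**
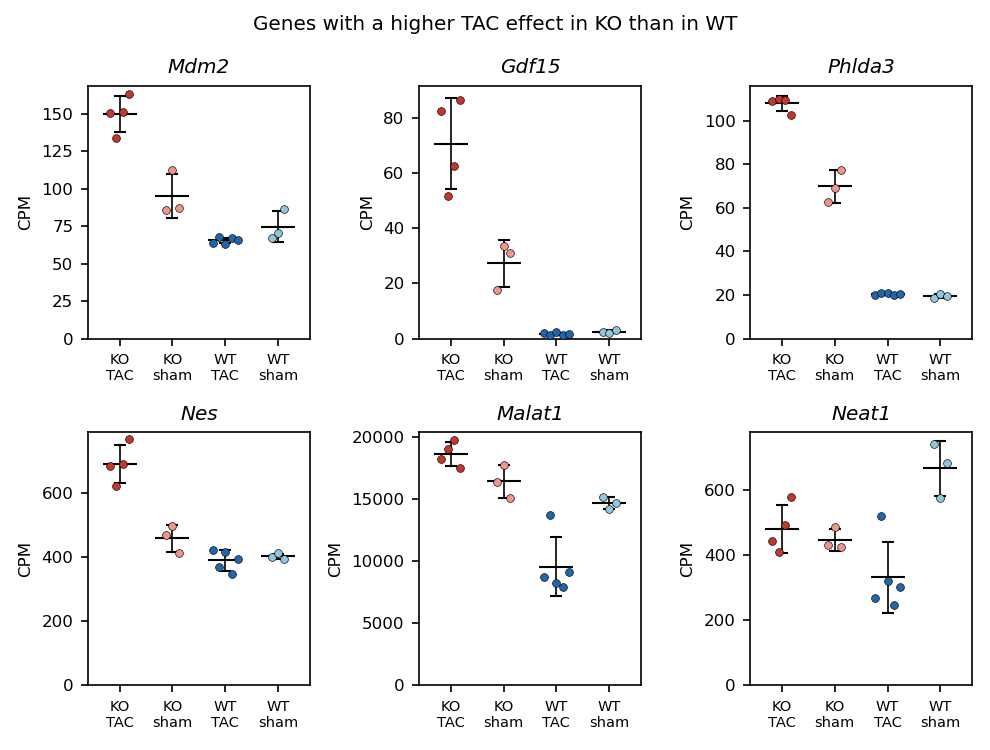
CPM (vertical axes from 0) of 6 genes with a positive difference, 1 point per library in KO TAC, KO sham, WT TAC and WT sham, with the mean and SD of each group as bars. The 4 KO TAC libraries are the highest in Mdm2, Gdf15, Phlda3 and Nes; in Malat1 and Neat1 4 of the 5 WT TAC libraries are the lowest and WT TAC 135 lies above them.

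Other genes rose in KO TAC with little effect in WT. Nes, which encodes the intermediate filament protein nestin of growing endothelium, had 687, 624, 693 and 769 CPM in KO TAC libraries against 468, 496 and 412 CPM in KO sham libraries. It had 424, 369, 416, 346 and 396 CPM in WT TAC libraries against 399, 412 and 396 CPM in WT sham libraries. KO TAC libraries were above all others, and the WT groups overlapped. Its difference was 0.64 ± 0.12 (adjusted p = 0.0174, called in all 15 refits; 0.54 without both KO sham libraries, adjusted p = 0.2295). Azin1, which protects ornithine decarboxylase and so favours polyamine synthesis, rose by 0.87 in KO with a WT effect of -0.02 (difference 0.89 ± 0.16, adjusted p = 0.0138; 0.0524 without WT sham 132). Slc20a1, a phosphate transporter, rose by 0.95 in KO (difference 1.03 ± 0.20, adjusted p = 0.0175; up to 0.0823 without WT sham 132 or WT sham 133). Sorbs2, an adaptor of the actin cytoskeleton, had a difference of 0.89 ± 0.17 (adjusted p = 0.0174; 0.106 without WT sham 131). These 3 had a KO effect that passed and a WT effect that did not.

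Genes of the cytoskeleton, matrix and ribosome assembly completed the 10 positive genes with the smallest p. Arhgef17, an exchange factor for small GTPases, and Mdn1, a factor of ribosome assembly, had differences of 1.11 ± 0.23 and 0.67 ± 0.14 (adjusted p = 0.0272 and 0.0228), each called in 10 of 15 refits (lost without WT sham 131, WT sham 132, WT TAC 136 or KO TAC 352 for both, and without WT TAC 137 for Arhgef17 and KO TAC 353 for Mdn1; up to 0.115). Hmcn1, a protein of the extracellular matrix, and Tacc2, a microtubule and centrosome protein, had differences of 0.88 ± 0.19 and 0.60 ± 0.13 (adjusted p = 0.0303 and 0.0321), called in 7 and 6 of 15 refits (up to 0.144 otherwise). Both were kept without WT sham 132, WT TAC 135, KO sham 348, KO sham 349 or KO TAC 354, Hmcn1 also without KO sham 350 or KO TAC 351, and Tacc2 also without KO TAC 352. The KO and WT effects were 0.72 and -0.38 for Arhgef17, 0.33 and -0.34 for Mdn1, and 0.57 and -0.32 for Hmcn1. For Tacc2 they were 0.58 and -0.02. Each of these KO effects passed the test and no WT effect did. Rhou, a small GTPase, had no count in the 3 KO sham libraries and 0.713 to 1.2 CPM in KO TAC libraries, 0.602 to 1.08 CPM in WT TAC libraries and 0.752 to 1.26 CPM in WT sham libraries. Against a floor of 3 counts in each KO sham library Rhou was at least 2.12-fold higher in KO TAC, and the median of the 25 positive genes was 0.80 with Rhou at that bound too. Its call was kept only without WT TAC 135 or KO sham 349 (adjusted p up to 0.123 otherwise), and KO sham 348 and KO sham 350 are the libraries with many genes at 0.

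In 5 genes there was a positive difference through a fall in WT TAC, with a KO effect that did not pass. Malat1 (chr19:5795690-5802671, minus strand), an abundant long RNA of the nucleus, had 18190, 18960, 19700 and 17500 CPM in KO TAC libraries against 16360, 17730 and 15070 CPM in KO sham libraries. It had 8693, 13710, 8228, 7900 and 9126 CPM in WT TAC libraries against 15110, 14200 and 14630 CPM in WT sham libraries. Every WT TAC library was below every other library. Neat1, the RNA scaffold of paraspeckles, had 443, 409.5, 494 and 579.6 CPM in KO TAC libraries against 431, 487 and 426 CPM in KO sham libraries. It had 268, 522, 319, 246 and 302 CPM in WT TAC libraries against 741, 576 and 686 CPM in WT sham libraries. Malat1 fell by 0.62 and Neat1 by 1.01 in WT, and the differences were 0.80 ± 0.18 and 1.11 ± 0.25 (adjusted p = 0.0398 and 0.0386). WT TAC 135 stood above the other 4 WT TAC libraries in both. Their calls were kept without WT TAC 135 or KO sham 349, for Malat1 also without KO TAC 354 and for Neat1 also without WT sham 132, and lost in the other 12 refits (adjusted p up to 0.123 and 0.144); without both KO sham libraries the differences were 0.70 and 1.00 (adjusted p = 0.346 and 0.329). Of 21 nuclear and host long noncoding RNAs tested, these 2 were called higher and none lower, 19 lay above 0, and the median difference was 0.66, from a median effect of 0.08 in KO and -0.48 in WT. This median was 0.25 without both KO sham libraries. The other 3 genes with a fall in WT were Zfp407, a zinc finger protein (75.1, 87.1, 68.6, 76.3 and 78.2 CPM in WT TAC libraries against 116, 96.8 and 125 CPM in WT sham libraries, WT effect -0.52), the splicing factor gene Rbm25 (-0.41) and Pdlim5, a gene of the actin cytoskeleton (-0.27). Their differences were 0.68, 0.61 and 0.44 (adjusted p = 0.0174, 0.0325 and 0.041). Rbm25 and Pdlim5 were kept only without WT TAC 135, KO sham 349 or KO TAC 354, and Rbm25 also without WT sham 132 (up to 0.105 and 0.123 otherwise). Zfp407 was lost without WT sham 131 or WT sham 133 (up to 0.0815).

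Much of the WT response ran in KO in the same direction. Of the 200 genes that rose in WT TAC, 172 had a positive KO effect, 88 also rose in KO, and 11 had a called difference; the median effect was 0.37 in KO and 0.61 in WT. Of the 123 genes that fell in WT TAC, 97 had a negative KO effect, 45 also fell in KO and 5 had a called difference (median -0.21 in KO and -0.49 in WT). Chosen on their WT effect, such genes have a WT median that the choice itself raises. Read from the other side, of the 580 genes that rose in KO TAC, 493 had a positive WT effect and 22 a called difference (median 0.65 in KO and 0.25 in WT), and of the 616 that fell, 420 had a negative WT effect and 48 a called difference (median -0.57 in KO and -0.10 in WT). Over the 1384 genes called in either effect the Pearson correlation of the effects was 0.53 and the Spearman correlation 0.596.

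Genes of the vessel wall show this common part. Col15a1, a collagen of the basement membrane of sprouting and capillary vessels, had 1017, 1548, 1348 and 801 CPM in KO TAC libraries against 484, 435 and 243 CPM in KO sham libraries. It had 809, 847, 650.1, 832 and 757 CPM in WT TAC libraries against 263, 237 and 226 CPM in WT sham libraries. It rose in both, with an effect of 1.6 in KO and 1.68 in WT and a difference of -0.08 ± 0.26 (adjusted p = 0.926). Col4a1, a chain of the main basement membrane collagen, rose by 0.58 in KO and 0.59 in WT (difference -0.01 ± 0.12, adjusted p = 0.98). Edn1, which encodes the vasoconstrictor endothelin-1, had 9.89, 8.95, 11.2 and 14 CPM in KO TAC libraries against 31.4, 24.4 and 24.3 CPM in KO sham libraries. It had 12.3, 12.2, 12.9, 10.3 and 9.76 CPM in WT TAC libraries against 30.6, 34.5 and 21.1 CPM in WT sham libraries. It fell in both, by 1.29 in KO and by 1.38 in WT, with no overlap of TAC and sham in either (difference 0.08 ± 0.25, adjusted p = 0.918). A p that misses the threshold does not show equal effects; the standard errors state what these libraries could resolve.

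Genes next to STING in its pathway held no call. Of 19 cGAS-STING pathway genes tested, none was called in the difference by edgeR, DESeq2 or limma, 2 had an unadjusted p under 0.05 in edgeR, and the median difference was -0.01, between -0.05 without KO TAC 352 and 0.10 without WT TAC 135. Of 49 interferon-stimulated genes tested, none was called by edgeR or limma and 1 was called lower by DESeq2; in edgeR 2 were positive and 7 negative at an unadjusted p under 0.05, and the median difference was -0.08, between -0.15 without WT sham 132 and 0.02 without KO TAC 351. Irf7, a transcription factor of the interferon response, averaged 69.5 ± 9.54 CPM in KO TAC and 75.5 ± 7.37 CPM in KO sham, and 136 ± 13.6 CPM in WT TAC and 98.1 ± 28.6 CPM in WT sham (difference -0.52 ± 0.19, adjusted p = 0.203). Isg15, an interferon-induced ubiquitin-like protein, had a difference of 0.59 ± 0.24 (adjusted p = 0.259), the opposite sign. None of 16 genes of MHC class I and peptide loading was called by the 3 tools, 4 were negative at an unadjusted p under 0.05, and their median difference was -0.14, between -0.26 without KO TAC 354 and -0.04 without KO TAC 351.

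Growth genes were called in neither direction. Of 40 replication genes and 40 mitosis genes tested, none was called by edgeR, DESeq2 or limma, 3 and 1 had an unadjusted p under 0.05, all positive, and the median differences were 0.31 and 0.16 (0.13 and 0.17 without both KO sham libraries). The mitosis median was 0.495 without KO sham 348 and 0.05 without KO TAC 352. Top2a, a topoisomerase of dividing cells, had a difference of 0.20 ± 0.43 (adjusted p = 0.872). Apln, which encodes the tip cell peptide apelin, rose by 1.02 in KO with a WT effect of 0.21, and its difference of 0.81 ± 0.22 did not pass (adjusted p = 0.0886). Plvap, which forms the diaphragms of fenestrated and venous endothelium, rose in both genotypes (2.87 in KO and 1.52 in WT, difference 1.35 ± 0.50, adjusted p = 0.202).

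**Figure D4:**
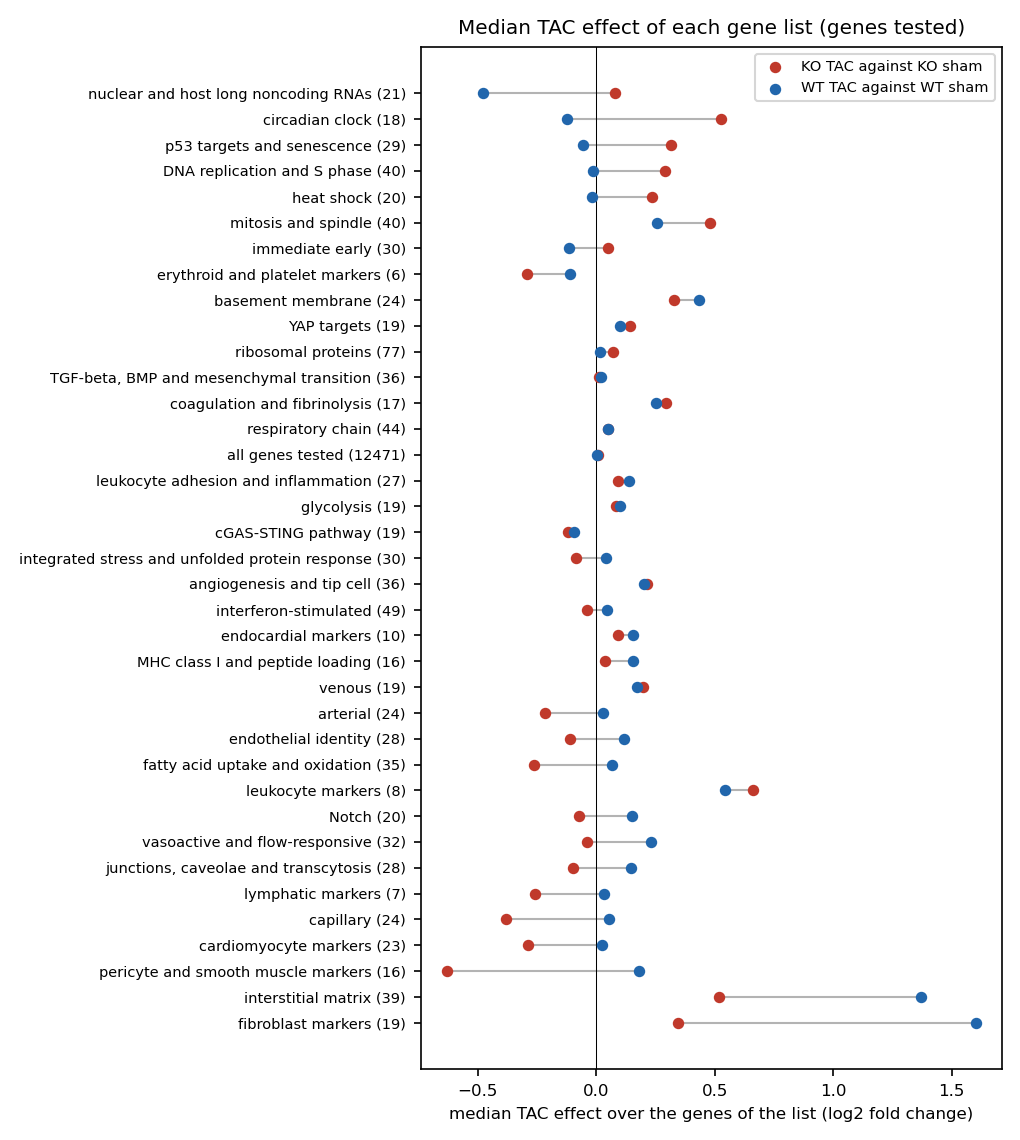
Median TAC effect (horizontal axis, log2 fold change) of the genes tested in each list, in KO (red) and WT (blue), ordered by the median difference, with the number of genes tested in brackets. Capillary genes have a median of -0.38 in KO and 0.05 in WT, long noncoding RNAs 0.08 in KO and -0.48 in WT, and fibroblast markers 0.34 in KO and 1.6 in WT.

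Markers of fibroblasts, cardiomyocytes, and pericytes and smooth muscle mostly had a negative difference, while those of some other cell types did not. None of the 8 leukocyte, 10 endocardial, 6 erythroid and platelet and 7 lymphatic markers tested was called. Their median differences were -0.24, -0.08, 0.10 and -0.34, and 4, 5, 2 and 6 of them lay below 0. Of 19 fibroblast markers tested, none was called by edgeR, DESeq2 or limma, 10 were negative and 1 positive at an unadjusted p under 0.05, and the median effect was 0.34 in KO and 1.6 in WT. Their summed level was 292.4 to 465.3 CPM in KO TAC libraries against 215.6 to 540.7 CPM in KO sham libraries, and 658.7 to 944.4 CPM in WT TAC libraries against 264.4 to 504.2 CPM in WT sham libraries. The highest KO sham value was that of KO sham 348, and the median difference of -1.13 over these markers was -0.36 without that library. In the interstitial matrix list none of 39 genes was called by edgeR or limma, and 2 were called higher by DESeq2. In edgeR 11 were negative and 4 positive at an unadjusted p under 0.05. The median difference of that list, -0.73, was -0.03 without KO sham 348. Unlike the fibroblast sum, the matrix sum was higher after TAC in both genotypes. It was 1944 to 2437 CPM in KO TAC against 1322 to 1766 CPM in KO sham, and 1562 to 1728 CPM in WT TAC against 1042 to 1240 CPM in WT sham. Of 23 cardiomyocyte markers tested 1 was called, Ttn, which encodes the sarcomere protein titin, with 85.8, 53.4, 71.4 and 86.7 CPM in KO TAC libraries against 210.3, 139.8 and 173 CPM in KO sham libraries. It had 131, 137, 155, 149 and 158 CPM in WT TAC libraries against 153, 189 and 185 CPM in WT sham libraries (difference -0.97 ± 0.20, adjusted p = 0.0248, lost without WT sham 131, WT sham 133, WT TAC 136, WT TAC 137, WT TAC 138, KO sham 348 or KO TAC 353, up to 0.132; -0.64 without both KO sham libraries, adjusted p = 0.347). Summed cardiomyocyte markers were 510.1 to 600.9 CPM in KO TAC against 639.1 to 762.3 CPM in KO sham. Most of this sum is Atp2a2, Tpm1 and Ttn, so the fall of Ttn weighs on it. The sum was 636.2 to 719.8 CPM in WT TAC against 690.7 to 723.9 CPM in WT sham, and 20 of 23 lay below 0 (median difference -0.58, between -0.88 without KO TAC 351 and -0.34 without KO TAC 354). Of 16 pericyte and smooth muscle markers tested, none was called by edgeR or limma, 3 were called lower and 2 higher by DESeq2, 6 were negative and 2 positive at an unadjusted p under 0.05, and the median difference was -0.64 (-0.31 without both KO sham libraries). Their sum was 919.4 to 981.6 CPM in KO TAC against 779.6 to 923.3 CPM in KO sham, and 793.1 to 897.3 CPM in WT TAC against 738.9 to 814.7 CPM in WT sham. Most of that sum is Mcam, which endothelial cells also express, with 749 to 764 CPM in KO TAC against 557 to 626 CPM in KO sham, and 582 to 704 CPM in WT TAC against 542 to 598 CPM in WT sham. Pdgfrb, a defining pericyte receptor, had 13 to 20.3 CPM in KO TAC against 20.3 to 38.8 CPM in KO sham, and 15.2 to 26.5 CPM in WT TAC against 12 to 22.2 CPM in WT sham. The part of these cells in the genes described above was not tested.

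The number of calls moved with the libraries used, while the direction of the 86 genes did not. Leaving out 1 library at a time gave between 25 calls (without WT sham 133) and 764 calls (without KO sham 349, when the 2 libraries with many genes at 0 make up KO sham). Without WT TAC 135, which stood apart in Malat1 and Neat1, 168 genes were called, 84 of them among the 86. Without both KO sham 348 and KO sham 350, 3 genes were called, 2 of them (Klra9 and Prg4) among the 86. In each of the 15 refits without 1 library all 86 genes kept their sign and an unadjusted p under 0.05. The 86 were chosen by this same test, and each refit reuses most of its libraries. This stability was thus largely set by the choice and is no separate support. Without both KO sham libraries the 86 genes also kept their sign. There the median ratio of a gene's difference to its difference in all libraries was 0.865. In all 15 refits without 1 library, 14 genes were called: Efna1, Jam2, Fcgrt, Ssh2, Fxyd6, Fmo1, Sema6a, Car4, Cables2, Klra9, Tek and Mllt4 with a negative difference, and Mdm2 and Nes with a positive one.

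**Figure D5:**
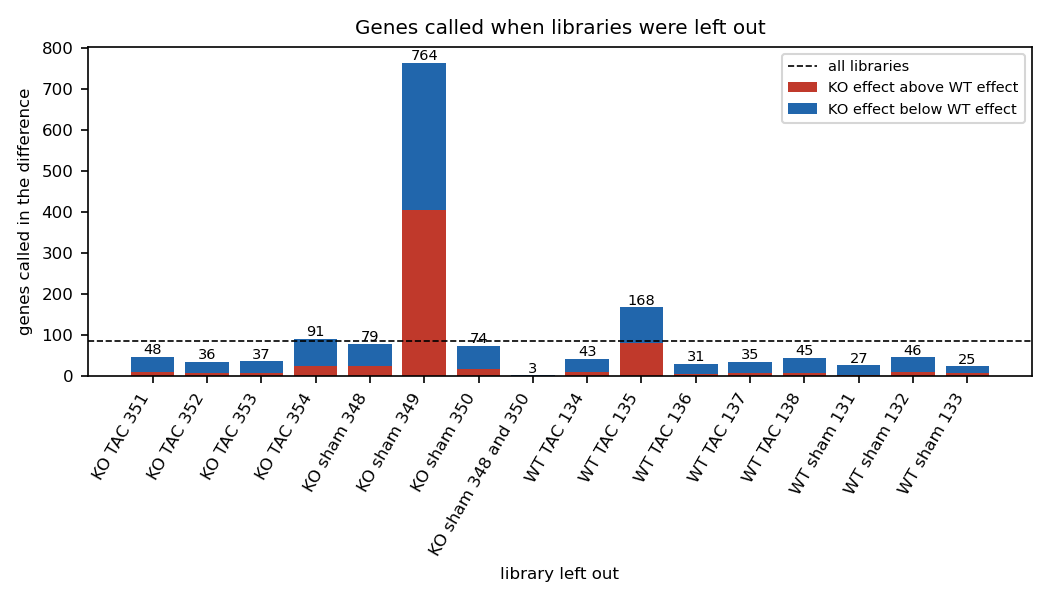
Number of genes called in the difference (vertical axis) when the library named on the horizontal axis was left out, split into genes with the KO effect above (red) and below (blue) the WT effect, with the 86 genes of all libraries as a dashed line. Counts run from 3 without both KO sham 348 and KO sham 350 to 764 without KO sham 349.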

How the data were processed

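RNA of sorted cardiac endothelial cells from 15 mice was sequenced. The authors deposited 1 table of raw read counts per gene, made with featureCounts 1.6.2 on the reverse strand (setting 2) over UCSC mm10 genes, without the options for reads that map to several places or overlap several genes, per the file headers. Reads had been aligned with HISAT2 2.1.0 to mm10, per the submitters' processing notes. Of the gene names, 25 had turned into dates, and those genes are not named.

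From the counts, edgeR 4.0.16 (R 4.3.3; TMM factors, filterByExpr, quasi-likelihood test, 1 mean per group over 15 libraries, 11 residual degrees of freedom) gave 5 contrasts with Benjamini-Hochberg adjustment over 12471 genes; a gene is called at an adjusted p under 0.05. Standard errors are the log2 change divided by the square root of the F statistic. CPM use TMM library sizes. DESeq2 1.42.0, limma 3.58.1 (voom with quality weights), other filters and left-out libraries were alternatives, and the code was checked on simulated counts. Mice carry separate numbers that pair nothing; p-values measure the spread between these libraries.

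Named genes are the 10 per direction with the smallest p at a mean of at least 5 CPM, up to 3 per list and a set list. Mllt4, Dhrs3, Xdh, Ahr, Fmo2, Cyp2d22, Gstm1, Rnf169, Ercc5, Ets2, Pcdh12, Fasn, Rhou, Prg4, Rbm25, Pdlim5 and genes of the promoter search were named after their values were seen. Members and gene lists were chosen with earlier results of these data known. Library depth limits the shallow WT sham 133, where 3 counts equal 2.26 CPM. Some genes are not reported here.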

Additional observations from a re-analysis of the deposited data

Results flagged for a closer look

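The TAC effects of the genotypes differed, by the test of the difference itself, in 86 genes, 25 with a positive and 61 with a negative difference. The named genes among them had log2 differences of 0.797 (Mdm2), 0.891 (Azin1), 0.639 (Nes), 0.677 (Zfp407), 0.89 (Sorbs2), 1.03 (Slc20a1), 0.672 (Mdn1), 1.11 (Arhgef17), 0.882 (Hmcn1) and 0.6 (Tacc2) on the positive side. On the negative side they were -1.13 (Efna1), -0.853 (Jam2), -0.822 (Fcgrt), -0.746 (Ssh2), -0.945 (Fxyd6), -0.658 (Fmo1), -0.665 (Sema6a), -1.31 (Car4), -0.689 (Cables2) and -2.07 (Klra9).

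In 12 of 170 pairs of a gene and a group of 4 or 5 libraries, 1 library lay far from the others of its group by Dixon's criterion, which chance meets in about 1 of 20 groups. WT TAC 135 held 7 of them, with 148.5 CPM of Hmcn1, 61.91 CPM of Ramp3, 521.7 CPM of Neat1, 13710 CPM of Malat1, 236.1 CPM of Fosb, 336.6 CPM of Ctsb and 504.7 CPM of Laptm4a. KO TAC 354 held 3, with 102.8 CPM of Phlda3, 313.3 CPM of Ifitm3 and 457.6 CPM of Apln. The others were 6898 CPM of Col4a1 in WT TAC 134 and 6.322 CPM of Dbp in WT TAC 138.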

How the results depend on the processing

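No paired analysis was possible because the 4 groups share no replicate numbers. The count of genes called in the difference, 86 (25 positive, 61 negative), was 317 (123 and 194) with DESeq2, 174 (67 and 107) with no filter on low counts, 58 (16 and 42) with limma, and 77 and 78 with RLE factors and robust dispersion. Against a fold of 1.5 it was 0 (0 and 0) in edgeR, where 335 genes had an unadjusted p under 0.05. Without both KO sham 348 and KO sham 350 it was 3 (0 and 3). Leaving out 1 library at a time gave 25 to 764 genes, 4 to 405 positive and 18 to 359 negative.

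The KO TAC effect, called in 1196 genes, gave 295 with limma, 41 against a fold of 1.5, 191 without both KO sham libraries and 695 to 2372 with 1 library left out. The WT TAC effect, called in 323, gave 507 with DESeq2, 1146 with limma, 19 against the fold, 695 without both KO sham libraries and 109 to 543 with 1 left out. KO against WT gave 480 against the fold after TAC (2868 to 4539 with 1 left out), and after sham 463 with limma, 77 against the fold, 394 without both and 505 to 2014 with 1 left out. The cause of these shifts was not tested.

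Of 85 genes, 6 changed sign somewhere, none of them called. Col4a1 was 0.005554 with DESeq2, 0.005431 with RLE factors and -0.07613 to 0.06374 with 1 library left out. Cxcl12 was 0.003571 without both KO sham libraries and -0.173 to 0.02466 with 1 left out. With 1 left out, Col15a1 ran between -0.3096 and 0.115, Edn1 between -0.06088 and 0.2245, Tmem173 between -0.3492 and 0.05772, and Top2a between -0.08886 and 0.5362. Of 36 gene lists, 14 changed the sign of their median difference under some setting.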
